A study of Mus musculus with 6 samples.

Results

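Integrins and the proteins that tie them to the actin cytoskeleton were examined in cultured mouse aortic smooth muscle cells after knockdown of Sirt6. The members were chosen by symbol: every gene of the deposited tables whose name matches the integrin subunits and a fixed set of focal adhesion proteins was taken, whatever its values. The pattern found 33 genes among the 7384 in the tables. They comprise 8 integrin subunits and 24 intracellular adhesion proteins, plus Hic1, a transcriptional repressor that matches by its symbol alone. The pattern takes 66 protein-coding symbols of the annotation. The other 33, among them Tln1, Pxn, Ptk2, Ilk, Src and Fermt2, were not in the tables. Absent integrin subunits include Itga2, Itga3, Itga6, Itga8, Itga10, Itgb3 and Itgb4. Of the 6 cultures, 3 (siSirt6) had received a small interfering RNA against Sirt6, an NAD-dependent deacylase, and 3 (Control) were the controls, all for 48 h. What the Control cultures received, how many mice the cells came from and their passage are not given in the sources used here, so p-values measure the spread between these cultures, which may be technical.

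Integrins are heterodimers of an alpha and a beta subunit that bind matrix proteins outside the cell and, through short cytoplasmic tails, talins and kindlins inside it. Around the tails a layered adhesion forms: scaffolds and kinases carry signals, the complex of ILK, PINCH and parvin stabilises the site, and vinculin, alpha-actinin, filamin and tensin join it to actin filaments. Smooth muscle cells rely on these sites to pass contractile force to the elastic and collagenous wall of the artery, and the set of integrins changes when the cells leave the contractile state.

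The tables give normalised read counts, that is reads per gene divided by 1 factor per library, for genes that took between 14458847 and 14866718 reads in the 5 libraries whose reads could be recovered. Nearly every listed gene differed between the groups, 3624 higher and 3542 lower of 7179 tested. It is therefore no result that every member passed, or that the groups of a gene did not overlap. The share of all genes without overlap was not counted, and direction and size are given instead. The tables hold 7384 of 55536 annotated genes, and the level of a gene outside them is not known here. No source used here says whether the tables were limited to genes that differ; if they were, the counts, the shares over all genes and the absence of members would reflect that choice. Sirt6 had values of 252, 257 and 270.4 in Control and 44.5, 59.8 and 63.5 in siSirt6 and fell to 0.215 of its Control level. Among smooth muscle markers 6 of 8 were in the tables (Des and Myocd were not), 5 higher and 1 lower, with sums of 63721 to 63957 in Control and 102338 to 103408 in siSirt6. Most of that sum was 1 gene, Acta2, at 58253 ± 107 in Control and 96836 ± 420 in siSirt6 (SD, n = 3). In Control, Tagln was at 179 ± 32.3 and Myh11 at 595 ± 16.6. Tagln, Myh11, Cnn1 and Lmod1 were at 1.95, 1.23, 1.63 and 1.34 of Control in siSirt6. Smtn was the marker that fell, from 2817 ± 36.8 to 2291 ± 54.3. Markers of adventitial fibroblasts, 8 of 8 in the tables, were 3 higher and 5 lower, with summed values of 88835 to 89805 in Control and 74257 to 75491 in siSirt6. Most of that sum was 1 broadly expressed gene, Gsn, at 72100.0 ± 521 in Control and 57433 ± 590.0 in siSirt6 (SD, n = 3). Pi16 was at 234 ± 15.6 and 169 ± 8.71. Control means of the others were 8758 for Ly6a, 4568 for Pdgfra, 2165 for Scara5, 660 for Dpt, 464 for Cd34 and 418 for Lum. In that order they were at 1.24, 0.784, 0.331, 1.64, 0.735 and 1.23 of Control in siSirt6. The part of these cell types in the results below was not tested. In bulk RNA, fewer cells of a type and less RNA per cell cannot be told apart.

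Most of the 8 integrin subunits in the tables moved upward, while the proteins inside the cell were divided. Of the 8 integrin subunits 7 rose, Itgb6 with a call that 2 alternatives lost, and 1 fell, with a median log2 fold change of 0.68. Of the 24 intracellular proteins 16 rose and 8 fell, with a median of 0.11, close to the median of 0.08 over the 7179 genes tested. All 33 genes passed the filter on low values. Kank4 did so through its Control values only, and Itgb6 through siSirt6 and 1 Control library. Such a filter favours low genes that are high in 1 group, so the place of these genes in the counts is no support for them. With Hic1 included, 24 rose (72.7%) against 50.5% of all genes tested, and 9 fell (27.3%) against 49.3%. At least 1.5-fold rises were seen in 6 of 33 (18.2%, background 11.2%), namely Itga5, Itga11, Itgb5, Itgb6, Itgb8 and Bcar1. Falls of that size were seen in 5 (15.2%, background 12.1%), namely Itga1, Vcl, Kank1, Kank4 and Actn3. With a mean of at least 5 CPM required, which leaves out Itgb6, Itgb8 and Kank4, 22 of 30 were higher and 8 lower, against 50.2% and 49.6% of all genes. Changes of at least 1.5-fold were seen in 4 genes upward (3 integrin subunits; 13.3% of 30, background 7.32%) and 4 downward (3 intracellular proteins; 13.3%, background 8.9%). The deposited factors leave siSirt6 libraries with larger totals than Control libraries. When each library was instead scaled to the total of its listed genes, the median of all genes went from 0.08 to -0.03, and 15 of the 33 were higher and 10 lower, against 37.7% and 49.7% of all genes. For integrin subunits the counts were 7 higher and 1 lower, while intracellular proteins were 7 higher, 9 lower and 8 without a call. The classes were not tested against each other. The plot of fold changes by role sets the integrins beside the proteins behind them.

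**Figure D1:**
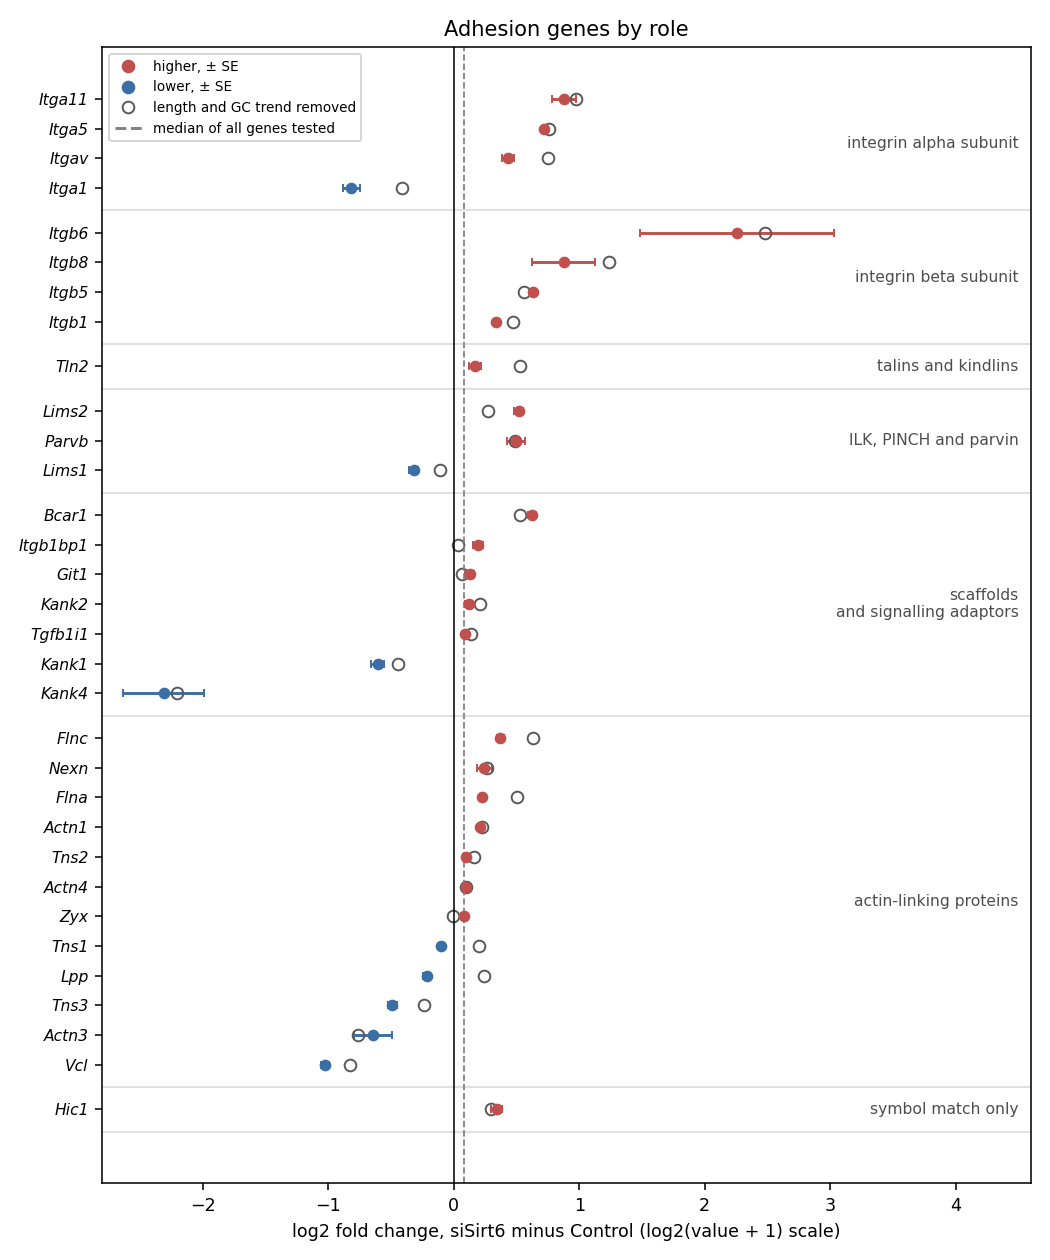
Log2 fold change of the adhesion genes named in the text (horizontal axis, siSirt6 minus Control, with SE; n = 3 libraries per group), grouped by role; open circles give the value once the dependence on transcript length and GC content is taken out, and the dashed line is the median of all genes tested. All integrin subunits except Itga1 lie above 0, Itgb6 with a call lost in 2 alternatives, whereas Vcl lies at -1.03; Kank4 passed the filter only through its Control libraries; the open circles of Lpp, Tns1 and Zyx lie on the other side of 0.

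The promoters of 4 genes on which the results turn are shown so that a reader can compare the start regions of genes that moved in opposite directions: the abundant alpha subunit that rose (Itga5), the collagen-binding alpha subunits that fell and rose (Itga1 and Itga11), and the abundant actin linker that fell (Vcl). Each runs from 250 bases before to 50 bases after the start site, 5′ to 3′ on the gene's own strand, as RefSeq gives it on GRCm38.p6. Capitals mark matches on either strand to 4 motifs: the CArG box bound by serum response factor, GGAATG (TEAD factors), GGGCGG (a GC box) and TGANTCA (AP-1). A match on the other strand shows its reverse complement.
Itga5, chr15:103366742-103367041, minus strand: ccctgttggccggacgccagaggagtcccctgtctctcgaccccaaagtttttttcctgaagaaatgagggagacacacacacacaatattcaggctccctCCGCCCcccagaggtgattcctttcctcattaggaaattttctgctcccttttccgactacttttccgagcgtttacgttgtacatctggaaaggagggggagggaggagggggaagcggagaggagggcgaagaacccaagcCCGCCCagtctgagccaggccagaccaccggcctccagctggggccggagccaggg
Itga1, chr13:115101915-115102214, minus strand: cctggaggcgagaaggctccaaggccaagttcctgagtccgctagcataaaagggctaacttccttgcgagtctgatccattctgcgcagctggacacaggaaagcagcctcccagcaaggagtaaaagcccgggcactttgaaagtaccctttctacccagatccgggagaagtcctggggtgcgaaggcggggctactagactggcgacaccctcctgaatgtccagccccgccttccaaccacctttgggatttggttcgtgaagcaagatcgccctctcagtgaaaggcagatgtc
Itga11, chr9:62677605-62677904, plus strand: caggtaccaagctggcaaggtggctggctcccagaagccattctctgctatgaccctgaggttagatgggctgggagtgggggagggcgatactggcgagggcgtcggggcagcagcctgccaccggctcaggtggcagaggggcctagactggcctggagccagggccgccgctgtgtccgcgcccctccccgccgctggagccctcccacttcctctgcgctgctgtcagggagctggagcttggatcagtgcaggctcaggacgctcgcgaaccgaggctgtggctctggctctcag
Vcl, chr14:20929148-20929447, plus strand: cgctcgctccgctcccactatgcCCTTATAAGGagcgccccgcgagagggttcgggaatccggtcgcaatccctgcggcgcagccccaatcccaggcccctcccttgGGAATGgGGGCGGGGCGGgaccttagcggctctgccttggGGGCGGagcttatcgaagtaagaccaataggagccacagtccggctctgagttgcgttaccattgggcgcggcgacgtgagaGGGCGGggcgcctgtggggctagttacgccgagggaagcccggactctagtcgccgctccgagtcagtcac

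The Vcl window holds a CArG box 227 bases before the start site, GGAATG at 143 bases before it and GGGCGG at 136, 131, 103 and 21 bases before it, the first pair of which overlap. The Itga5 window holds GGGCGG on the other strand, beginning 149 and 6 bases before the start site, and the windows of Itga1 and Itga11 hold none of the 4 motifs. Promoters were found for 27 of the 33 genes, 35 in all. Among them 2 held a CArG box (Vcl and Itgb6), against 1.63% of all 32851 promoters of the same length. GGAATG was in 7 of 35 against 14.7% of all, GGGCGG in 23 of 35 against 35.7%, and TGANTCA in 2 of 35 against 7.81%. The 32851 take in genes outside the tables, and some members have more than 1 promoter. The shares are therefore not like for like, and no result is drawn from them. A match describes letters and shows no binding.

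Among alpha subunits, Itga5 (chromosome 15, 103344286 to 103366763, GRCm38), which pairs with Itgb1 to form the main fibronectin receptor, had values of 11934, 12278 and 11807 in Control and 19869, 19478 and 20083 in siSirt6. Every siSirt6 library lay far above every Control library. The rise was 1.65-fold, a log2 fold change of 0.72 ± 0.0196 (SE, n = 3; limma adjusted p = 4.90e-26). Itgav (chromosome 2, 83724397 to 83806916), the alpha subunit of receptors for vitronectin and latent TGF-beta, had values of 2836, 2910.2 and 2930.2 in Control and 4018, 3548 and 4175 in siSirt6. The groups did not overlap, but the second siSirt6 library was lower than the other two and widened the spread. The rise was 1.35-fold (log2 0.43 ± 0.0501 SE), and 0.75 with the length trend removed.

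Itga1 and Itga11, the collagen-binding alpha subunits in the tables, went in opposite directions. Itga1 (chromosome 13, 114953096 to 115101964), a collagen and laminin receptor found on contractile smooth muscle, had values of 607, 609 and 632 in Control and 349, 355 and 346 in siSirt6. The siSirt6 libraries were tightly grouped below all Control libraries, at 0.568 of the Control level, with a log2 fold change of -0.81 ± 0.0678 (SE, n = 3; limma adjusted p = 1.21e-12). Itga11 (chromosome 9, 62677826 to 62783982), a receptor for fibrillar collagen typical of fibroblasts, had values of 174, 218 and 209 in Control and 345, 362 and 393 in siSirt6. No siSirt6 library overlapped a Control library, and the rise was 1.83-fold, a log2 fold change of 0.88 ± 0.096 (SE, n = 3; limma adjusted p = 7.89e-10). Inside each library, the ratio of Itga1 to Itga11 reads was 3.49, 2.79 and 3.03 in Control and 1.01, 0.98 and 0.878 in siSirt6. The ratio, not corrected for length, was thus lower in every siSirt6 library. Itga1 has a long transcript, 10967 nt, and its log2 fold change was -0.41 with the length trend removed.

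All 4 beta subunits in the tables were called higher, against 50.5% of all genes tested, Itgb6 with a call that 2 alternatives lost. Itgb1 (chromosome 8, 128685654 to 128733200) is the common partner of most alpha subunits and was the most abundant integrin listed. Its values were 23695, 23865 and 23965 in Control and 29829.8, 30596 and 30080.0 in siSirt6. The groups were well apart although the rise was modest, 1.27-fold with a log2 fold change of 0.34 ± 0.0161 (SE, n = 3; limma adjusted p = 3.58e-19). Itgb5 (chromosome 16, 33829665 to 33949338), which pairs with Itgav in a vitronectin receptor, had values of 4552, 4687 and 4788 in Control and 7198, 7342 and 7211 in siSirt6. All siSirt6 libraries were again higher, by 1.55-fold, with a log2 fold change of 0.63 ± 0.0253 (SE, n = 3; limma adjusted p = 2.60e-21). Itgb8 and Itgb6, partners of Itgav in the activation of latent TGF-beta, were near the lower limit of the data. Itgb8 had values of 20.5, 26.3 and 26.1 in Control and 52.4, 33 and 53.1 in siSirt6 (log2 0.88 ± 0.252 SE, limma adjusted p = 0.00188). Itgb6 was listed at 4.88, 11.7 and 0 in Control and 17.8, 26.8 and 14.6 in siSirt6, and its call (limma adjusted p = 0.0143) was lost with p adjusted over all annotated genes (adjusted p = 0.111) and with DESeq2 on 5 libraries (adjusted p = 0.208), so no fold is given for it.

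**Figure D2:**
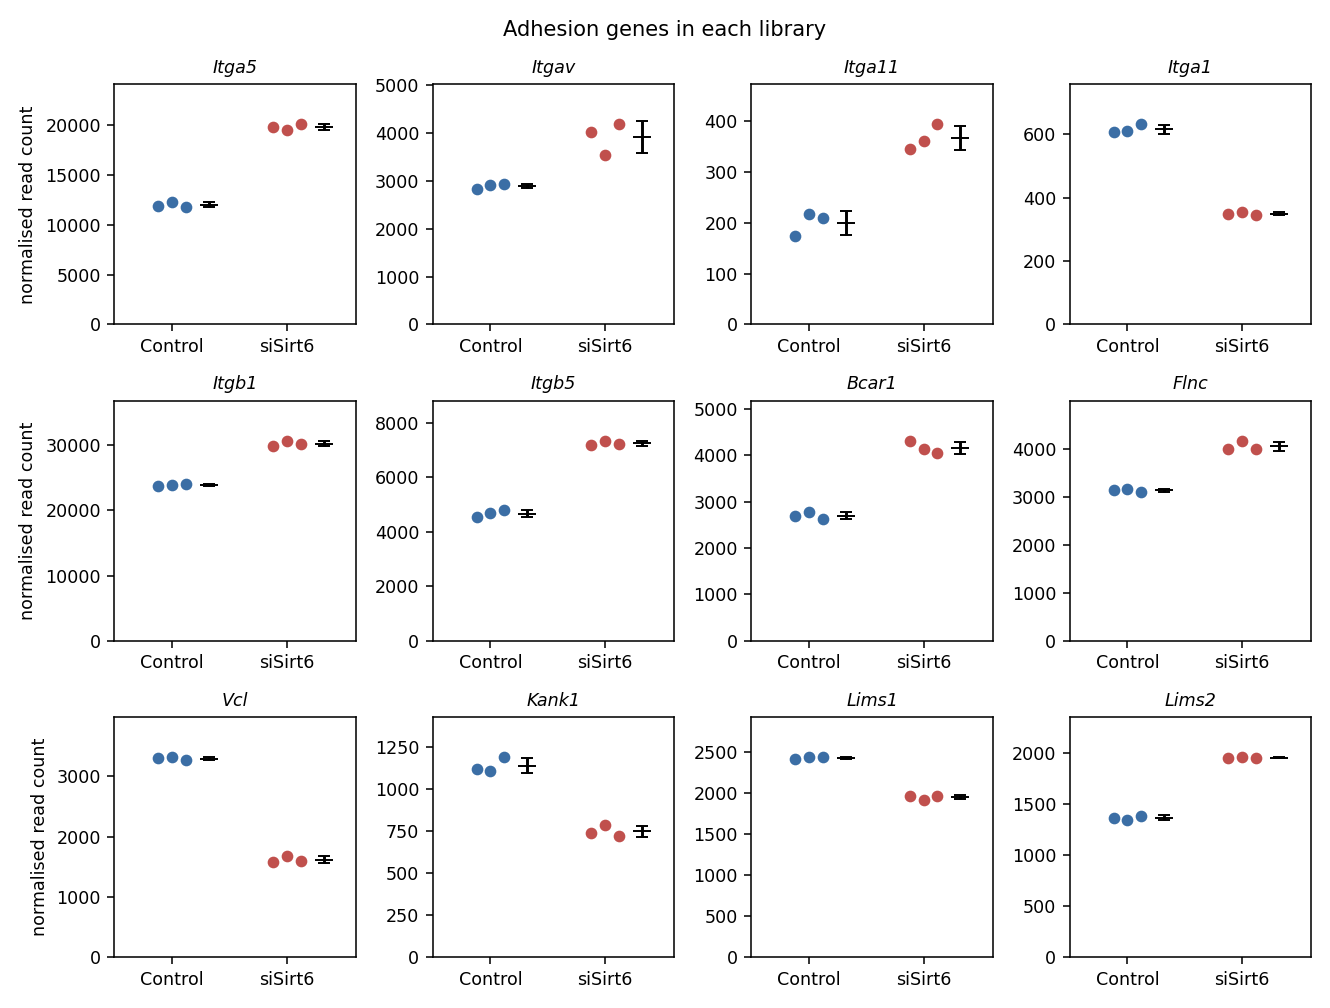
Normalised read count (vertical axis, from 0) of 12 adhesion genes in each library, Control in blue and siSirt6 in red, 3 libraries each; black marks give mean ± SD. The groups do not overlap in any panel: Itga5, Itgav, Itga11, Itgb1, Itgb5, Bcar1, Flnc and Lims2 are higher in siSirt6, and Itga1, Vcl, Kank1 and Lims1 are lower. Nearly every listed gene differed between the groups, so the separation is no result about these genes.

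Levels of different genes were compared per length, as the normalised read count per kb of the longest annotated transcript. In Control, Itgb1 stood at 6249 ± 35.7 per kb (SD, n = 3), Itga5 at 2719 ± 55.3, Itgb5 at 1425 ± 36.1 and Itgav at 410.0 ± 7.07. Itga1 at 56.2 ± 1.24 and Itga11 at 40.3 ± 4.71 per kb were far lower, and Itgb8 at 2.89 ± 0.391 and Itgb6 at 1.15 ± 1.22 closed the order. In Control every neighbouring pair down to Itgb8 differed by more than its SDs, and in siSirt6 Itgb8 at 5.49 ± 1.36 and Itgb6 at 4.1 ± 1.32 did not. In siSirt6 the order changed at 1 place, where Itga11 at 73.8 ± 4.93 per kb passed Itga1 at 31.9 ± 0.419. Of the per-length total of the 4 alpha subunits, Itga5 held 84.3% ± 0.394 in Control and 87.2% ± 0.645 in siSirt6 (SD, n = 3). Among beta subunits, Itgb5 went from 18.6% ± 0.298 to 21.8% ± 0.0591. Subunits outside the tables are not in these shares.

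**Figure D3:**
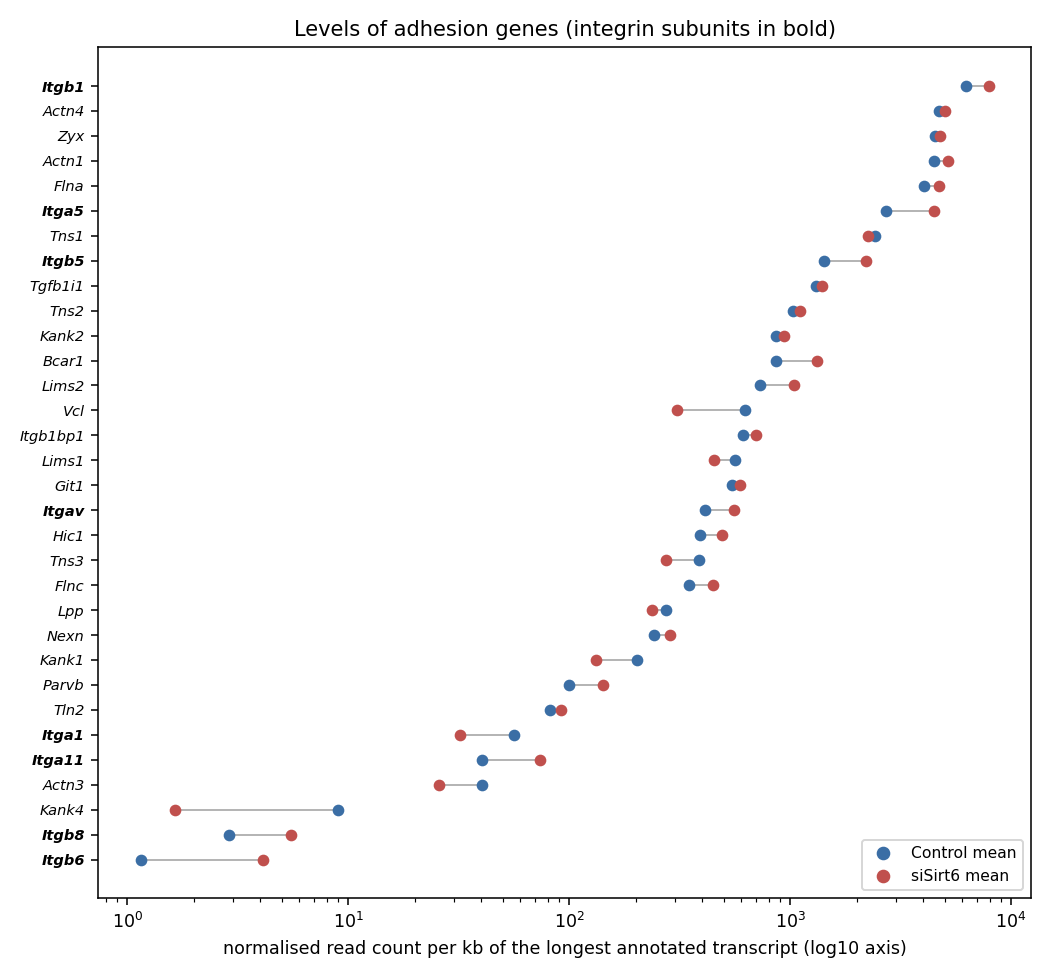
Normalised read count per kb of the longest annotated transcript (horizontal log10 axis) of the adhesion genes named in the text, Control mean in blue and siSirt6 mean in red (n = 3 each), ordered by the Control level; integrin subunits are in bold. Itgb1 is the highest in both groups, and the widest gaps between the groups are those of Kank4, Itgb6 and Vcl. Kank4 passed the filter only through its Control libraries. The call of Itgb6 was lost with DESeq2 and with adjustment over all annotated genes. The values of Kank4 and Itgb6 are low, and the width of their gaps is no result about these genes.

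Summed over the class, integrin subunits took 0.311, 0.317 and 0.315% of listed values in Control and 0.402, 0.403 and 0.41% in siSirt6. Intracellular adhesion proteins took 1.13, 1.14 and 1.13% and 1.11, 1.12 and 1.12%. The integrin share was higher in every siSirt6 library, whereas the share of intracellular proteins was slightly lower. Endothelial cells also carry Itga5, Itgav and Itgb1, and endothelial markers rose beside them: 8 of 10 were in the tables (Tek and Erg were not), all 8 were higher, and their summed value was 1000.1 to 1155 in Control and 1823 to 1969.7 in siSirt6. Of macrophage and leukocyte markers 3 of 11 were in the tables and all 3 were called higher, with sums of 1777 to 1822 and 1978 to 2018. Of all genes tested 50.5% were higher. Under listed totals all 8 endothelial markers and 0 of these 3 were higher, against 37.7% of all genes. The leukocyte integrins Itgam, Itgal, Itgax and Itgb2 and all 6 platelet markers were not in the tables. The epithelial list had 1 of 6 markers in the tables, Krt14, at 7.81 to 8.76 in Control and 40.2 to 49.4 in siSirt6. The Schwann cell and neuron list had 3 of 6, 1 higher and 2 lower. The part of these cell types in the integrin result was not tested.

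Of the scaffolds and signalling adaptors, 5 of 7 rose and 2 fell, against 50.5% and 49.3% of all genes tested. Under listed totals 1 was higher and 2 lower, against 37.7% and 49.7% of all genes. With the length trend removed 3 were higher and 2 lower, against 37.3% and 36.9%. Bcar1 (chromosome 8, 111710474 to 111743809), the stretch-sensitive Src substrate p130Cas, had values of 2694, 2779.7 and 2629.8 in Control and 4309, 4127 and 4048 in siSirt6. It was the only intracellular protein of the 24 with a rise of at least 1.5-fold, at 1.54-fold, with a log2 fold change of 0.62 ± 0.0311 (SE, n = 3; limma adjusted p = 1.43e-18), and all siSirt6 libraries were above all Control libraries. Kank1 (chromosome 19, 25236975 to 25434496), which binds talin at the rim of adhesions and links it to microtubule capture sites, had values of 1121, 1108 and 1189 in Control and 739, 783 and 722 in siSirt6. The siSirt6 libraries were all lower, at 0.657 of Control, with a log2 fold change of -0.61 ± 0.051 (SE, n = 3; limma adjusted p = 1.58e-12).

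Its paralogs did not share one direction. Kank2, the most abundant of them, was 1.09-fold of Control (log2 0.12 ± 0.0272 SE), a rise that was 0.00 when each library was scaled to its listed total. Kank4 was low, at 45.9, 32.1 and 51.2 in Control and 5.93, 8.25 and 9.37 in siSirt6; the groups did not overlap and no fold or test is given, since it passed the filter only through its Control libraries. The ratio of Kank1 to Kank2 reads was 0.255, 0.257 and 0.277 in Control and 0.158, 0.161 and 0.157 in siSirt6. The balance thus lay lower for Kank1 in each knockdown library.

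Small rises made up the rest of the scaffolds. Itgb1bp1, an inhibitor that competes with talin for the Itgb1 tail, had values of 1183, 1174 and 1179 in Control and 1382, 1371 and 1290.5 in siSirt6, and Git1, a scaffold for Pak and Arf signalling, 1935, 1929 and 1856 in Control and 2117, 2026 and 2100.1 in siSirt6. Neither pair of groups overlapped. Both calls were lost under listed totals (log2 0.07 and 0.01) and with the length trend removed (log2 0.03 and 0.07, adjusted p = 0.49 and 0.0755). Tgfb1i1, a paxillin paralog, was 1.06-fold of Control (log2 0.09 ± 0.0273 SE), and -0.03 under listed totals, so its direction rests on the scaling. Tln2, the talin paralog prominent in striated muscle, had values of 979.7, 1003 and 997 in Control and 1122, 1092 and 1139 in siSirt6. All siSirt6 libraries were higher and the rise was 1.13-fold (log2 0.17 ± 0.046 SE); under listed totals it did not pass (log2 0.05).

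In the complex of ILK, PINCH and parvin, the PINCH paralogs moved in opposite directions. Lims1 (chromosome 10, 58323466 to 58424691), which encodes the broadly expressed PINCH adaptor, had values of 2422, 2439.9 and 2441 in Control and 1963, 1922 and 1966 in siSirt6. Lims2 (chromosome 18, 31922290 to 31958619), its paralog that competes for the same site on ILK, had values of 1364, 1337 and 1384 in Control and 1948, 1954 and 1944 in siSirt6. Lims1 was lower in all siSirt6 libraries, at 0.801 of Control, with a log2 fold change of -0.32 ± 0.0337 (SE, n = 3; limma adjusted p = 3.21e-10), and Lims2 higher in all, at 1.43-fold, with a log2 fold change of 0.52 ± 0.038 (SE, n = 3; limma adjusted p = 5.29e-14). The ratio of Lims1 to Lims2 reads was 1.78, 1.83 and 1.76 in Control and 1.01, 0.984 and 1.01 in siSirt6. Per length, Lims2 held 56.4% ± 0.449 of the sum of both in Control and 69.8% ± 0.317 in siSirt6 (SD, n = 3). With the length trend removed the log2 fold changes were -0.11 and 0.27, with the directions kept. Parvb, the parvin that also binds a Rac and Cdc42 exchange factor, had values of 379.6, 365 and 391 in Control and 523, 552 and 529.7 in siSirt6 and rose 1.41-fold (log2 0.50 ± 0.0696 SE), without overlap of the groups.

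Actin-linking proteins were split, 8 of 13 higher and 5 lower, against 50.5% and 49.3% of all genes tested, with a median log2 fold change of 0.10. Under listed totals 4 were higher and 6 lower, against 37.7% and 49.7% of all genes. With the length trend removed 9 were higher and 3 lower, against 37.3% and 36.9%. Vcl (chromosome 14, 20929398 to 21033676), which encodes vinculin, the protein that reinforces the bond between talin and actin under tension, had values of 3298, 3315 and 3265 in Control and 1576, 1679 and 1592 in siSirt6. The groups were widely apart, and Vcl fell to 0.491 of Control, with a log2 fold change of -1.03 ± 0.0342 (SE, n = 3; limma adjusted p = 1.49e-23). The fall was -0.83 with the length trend removed. Tns3, a tensin that binds beta tails and actin, had values of 3059, 2802 and 2772 in Control and 2094, 2018 and 2032 in siSirt6. All siSirt6 libraries were lower, at 0.712 of Control, with a log2 fold change of -0.49 ± 0.0362 (SE, n = 3; limma adjusted p = 7.39e-14), and the log2 fold change was -0.24 without the length trend.

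Filamins are long cross-linkers of actin that bind beta tails and compete with talin there. Flnc, the muscle filamin, had values of 3138, 3163 and 3094 in Control and 3989, 4162 and 3998 in siSirt6, a rise of 1.29-fold, with a log2 fold change of 0.37 ± 0.029 (SE, n = 3; limma adjusted p = 2.62e-13). Every siSirt6 library was above every Control library. Flna, the broadly expressed filamin, rose 1.17-fold (log2 0.23 ± 0.0146 SE). Their transcripts are 9038 and 8456 nt long, in a length class in which most genes were lower. With the length trend removed the log2 fold changes of Flnc and Flna were 0.63 and 0.50.

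Nexn, an actin-binding protein of muscle, had values of 652, 632 and 576 in Control and 764, 702 and 734 in siSirt6, with no overlap and a rise of 1.18-fold (log2 0.24 ± 0.0606 SE). Under listed totals its call was lost (log2 0.12). The abundant alpha-actinins, which bundle actin filaments, moved little: Actn1 rose 1.16-fold (log2 0.21 ± 0.018 SE), and Actn4 was 1.07-fold of Control (log2 0.10 ± 0.0185 SE, -0.02 under listed totals). Actn3, the fast-muscle isoform, was low and fell from 116 ± 9.66 to 74 ± 7.6 (SD, n = 3). Reads shared between the similar actinin genes could not be assessed from the tables.

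Directions of the remaining linkers rested on the processing. Zyx, the LIM protein of mature adhesions, went from 14351 ± 20 to 15148 ± 299 (log2 0.08 ± 0.0192 SE). Its value was -0.04 under listed totals and -0.01 with the length trend removed. Tns2 was 1.07-fold of Control (log2 0.10), and -0.02 under listed totals. Tns1 and Lpp, a zyxin relative, were at 0.933 and 0.861 of Control (log2 -0.10 and -0.22), and at 0.20 and 0.24 with the length trend removed, which turned both upward; their transcripts are 9966 and 15459 nt long. Outside the adhesion proteins, Hic1 had values of 1331, 1385 and 1361 in Control and 1779.9, 1762 and 1629 in siSirt6 and rose 1.27-fold (log2 0.34 ± 0.0415 SE), with no overlap.

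Ratios inside a library do not depend on its scaling factor, and 10 of them were compared. The ratio of Vcl to Itgb1 was 0.139, 0.139 and 0.136 in Control and 0.0528, 0.0549 and 0.0529 in siSirt6, 0.388 of its Control mean. The ratio of Vcl to Actn1 was 0.199, 0.196 and 0.194 in Control and 0.0801, 0.0877 and 0.0824 in siSirt6. Both ratios were lower in every knockdown library. They restate the fall of Vcl and the rises of Itgb1 and Actn1 given above and are no further finding. The Itga5 to Itgb1 ratio was 0.504, 0.515 and 0.493 in Control and 0.666, 0.637 and 0.668 in siSirt6, so the balance lay higher for Itga5 in every siSirt6 library. For Itgav and Itgb5 the ratio was lower, 0.558, 0.483 and 0.579 in siSirt6 against 0.623, 0.621 and 0.612 in Control, with the second siSirt6 library lowest. Ratios of reads still carry the length trend. With it removed, Itgav rose more than Itgb5 (log2 0.75 against 0.56), so the direction of this ratio rests on the processing. Tns3 to Tns1 stood at 0.763 of its Control mean, Itga1 to Itgb1 at 0.449 and Flna to Actn4 at 1.09. None of the 10 ratios overlapped between the groups. Nearly every listed gene differed and no share over other gene pairs was computed, so this separation is no result about these pairs. Each gave an exact 2-sided permutation p of 0.1, also after Benjamini-Hochberg adjustment over the 10, which is the smallest that 3 against 3 libraries allow, so none can pass 0.05.

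**Figure D4:**
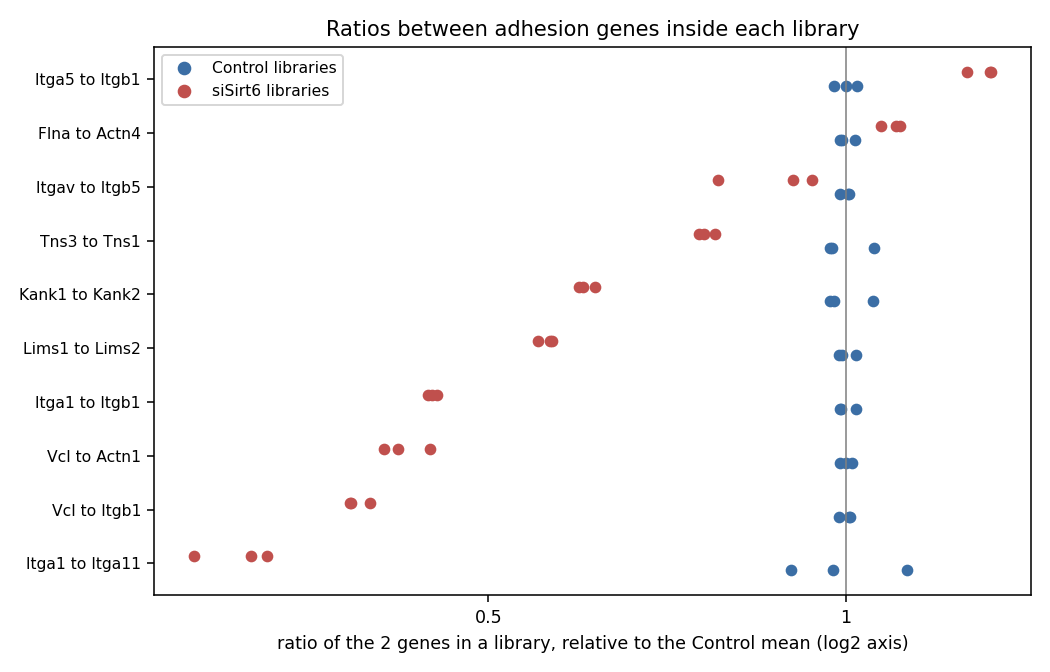
Ratio of the reads of 2 adhesion genes inside each library, divided by the Control mean of that ratio (horizontal log2 axis), for 10 pairs; blue points are the 3 Control libraries and red points the 3 siSirt6 libraries. The largest shift is that of Itga1 to Itga11, at 0.308 of its Control mean, and only Itga5 to Itgb1 and Flna to Actn4 are higher in siSirt6.

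Of the matrix ligands of these receptors 25 of 31 were tested, 15 higher and 10 lower, with a median log2 fold change of 0.06, against 50.5% and 49.3% of all genes and a median of 0.08. Tenascin C (Tnc) rose 1.43-fold, Tgfbi 1.45-fold and osteopontin (Spp1) 1.31-fold, while Fbln5, an elastic fibre protein, fell to 0.748 of Control. Fibronectin (Fn1), named after its values were seen because it is the ligand of the Itga5 receptor, had values of 96943, 95899 and 98314 in Control and 112959, 115156 and 117902 in siSirt6. It rose 1.19-fold without overlap (log2 0.25 ± 0.0133 SE). Collagen Col1a1, a ligand of the Itga1 and Itga11 receptors named in the same way, was at 0.855 of Control (log2 -0.23 ± 0.0117 SE).

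Among other membrane receptors and integrin partners, 21 of 22 were tested, 14 higher and 7 lower (median 0.29). Over all genes tested, 50.5% were higher and 49.3% lower, with a median of 0.08. Under listed totals 13 of the 21 were higher, against 37.7% of all genes. With the length trend removed 13 were higher and 4 lower, against 37.3% and 36.9%. The hyaluronan receptor Cd44 rose 2.22-fold (log2 1.15 ± 0.0328 SE), the urokinase receptor Plaur 1.7-fold and the proteoglycan Cspg4 1.69-fold, while syndecan 1 (Sdc1) fell to 0.581. Other proteins of adhesion sites were evenly split, 14 higher and 13 lower of 27 tested among 37 (median 0.06), near the shares over all genes. There supervillin (Svil), which binds actin and myosin, fell to 0.495 of Control, while the LIM proteins Csrp2 and Tes rose 1.87-fold and 1.66-fold.

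Genes of adhesion signalling were mostly lower: of 26 tested among 37, 5 rose and 21 fell (median -0.26), against 49.3% of all genes tested that fell. The Src family kinase Yes1 fell to 0.637 of Control, the adaptor Nck2 to 0.699, the guanine nucleotide exchange factor Arhgef11 to 0.737 and the myosin phosphatase subunit Ppp1r12a to 0.752. With the length trend removed, 7 were higher and 11 lower, against 37.3% and 36.9% of all genes, and the median was -0.06, so that their share lower was near that of all genes. For the matrix ligands that removal gave 19 higher and 6 lower, and for other adhesion-site proteins 8 and 8. Under listed totals 1 of the 26 adhesion signalling genes, 10 matrix ligands and 9 other adhesion-site proteins were higher, against 37.7% of all genes.

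Transcript length accompanied direction over all listed genes. Split into 5 equal classes by length, the longest class (5444 nt and over) had 20.8% of its genes higher and the shortest class 82.1%. Of the adhesion genes none was in the shortest class, 3 were in the second and all were higher, and 11 were in the middle class (2854 to 3972 nt), 10 of them higher, against 66% and 49.1% of all genes there. In the next class 5 of 8 were higher, against 33.8%, and in the longest 6 of 11. With this dependence on length and GC taken out, the integrin subunits were still 7 higher and 1 lower (median 0.75, against -0.00 over all genes), and the intracellular proteins 15 higher and 6 lower (median 0.18), where 37.3% of all genes were higher and 36.9% lower.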

How the data were processed

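RNA was sequenced from 6 cultures, 3 per group; per the labels' protocols, a kit that marks strand was used on mRNA from Trizol extracts. Per the submitters' processing notes the tools include HISAT2, HTSeq, Trimmomatic and Cufflinks and the build is mm10, with no versions or roles. Use of strand in counting, and the origin of the library factors, are not given in the sources used here. Per gene, the authors deposited a normalised signal; in 5 of the 6 libraries 100% of the values were whole multiples of 1 step, within 0.01 reads, so each is reads divided by 1 factor.

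The test was limma 3.58.1 (R 4.3.3), 2-sided, with a robust variance trend, applied to log2(value + 1) for siSirt6 against Control without covariates. It covered 7179 of 7384 genes, those reaching 10 in 3 or more libraries, with Benjamini-Hochberg adjustment and a threshold of 0.05. Log2 fold changes are on that scale, which understates low genes; folds are ratios of group means of the deposited values. Summaries, ratios and exact permutation tests used Python 3.11.15 and scipy 1.17.1. The fit and the removal of the length trend were tested on simulated data. GENCODE vM21 (GRCm38, that is mm10) supplied positions for 7332 genes, and the longest transcript with its GC content for 7331. RefSeq supplied the promoters. The pattern, the roles, the gene lists and the tests were chosen with earlier results of these data known. Members are named, except for a result that is not reported here, with values in every library for the 4 per role with the largest change among those with a mean of at least 100, and for 3 low genes, Itgb6, Itgb8 and Kank4, named by library after their values were seen; from each gene list the 4 largest changes by the same minimum are named, with the same exception. Count tests with edgeR 4.0.16 and DESeq2 1.42.0 ran on recovered reads of 5 libraries with the deposited factors; siSirt6 replicate 1, whose step is too near 1, was left out. Depth sets the precision: Itgb6, Itgb8 and Kank4 rest on few reads, most other members on many.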

Additional observations from a re-analysis of the deposited data

How the results depend on the processing

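For the 33 genes, TMM scaling, pseudocounts of 0.5 and 5, no filter, the replicate block and leaving out each library in turn kept every gene's direction and call. Without 1 library, 24 to 24 genes were higher and 9 to 9 lower, 7 to 7 integrins higher and 1 to 1 lower, 16 to 16 intracellular proteins higher and 8 to 8 lower, with medians of 0.67 to 0.69 and 0.10 to 0.12. Same-numbered libraries did not deviate together (r = -0.0195, 0.0268 and -0.000793), so the numbers pair nothing; the fit with a replicate block called 24 higher and 9 lower. Listed totals gave 15 higher in place of 24, 7 intracellular proteins higher in place of 16, medians of 0.56 and -0.00817, and turned Zyx (-0.041), Actn4 (-0.021), Tns2 (-0.0175) and Tgfb1i1 (-0.0293) downward. With the length and GC trend removed, also with the replicate block, the medians were 0.75 and 0.18, and Lpp (0.24), Tns1 (0.20) and Zyx (-0.0056) turned. A mean of at least 5 CPM, which leaves out Itgb6, Itgb8 and Kank4, gave medians of 0.53 and 0.12. For intracellular proteins the median was 0.0843 with TMM, 0.105 with edgeR and 0.105 with DESeq2. The cause of these shifts was not tested beyond what the settings themselves change. Itgb6 alone lost its call with DESeq2 and with adjustment over all annotated genes. Depth limits Itgb6, Itgb8, Kank4 and Actn3.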
